A study of Mus musculus with 12 samples.

Results

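Omni-ATAC-seq reads were compared at the 70 intervals of open chromatin that were listed for Zfp266 knockout (KO) both in mouse embryonic fibroblasts (MEFs) and after 72 h of reprogramming. An interval is a stretch of the genome covered by a peak in at least 1 group. The members are all intervals whose identifiers occur in both deposited lists, which held 480 intervals in MEF and 1608 in reprogramming, out of 273256 merged intervals in all. Those lists were made at an adjusted p under 0.05 for KO against control, and they took in 0.176% of the merged intervals in MEF and 0.588% in reprogramming. Because the lists were chosen on the KO effect, the effect within each context is described here without a test. What was tested is whether the effect differed between the contexts, and how the levels of the contexts differed within each arm. At these 70 intervals only, counts were at hand for all 12 libraries.

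ZFP266 belongs to the KRAB zinc finger proteins, a large family of DNA-binding repressors that recruit the co-repressor KAP1 and keep chromatin closed, often at transposable elements. B1 elements are short interspersed repeats, abundant in introns and between genes of the mouse. AP-1 is a family of FOS and JUN dimers that keeps many fibroblast enhancers open, and OCT4, SOX2 and KLF4 open other sites when a somatic cell is reprogrammed. Transposition by Tn5 marks DNA that nucleosomes leave free, so a higher read count in an interval can come from more cells with the site open or from a site more open in each cell, and these cannot be told apart in bulk libraries.

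The cells were Cas9 TNG MKOS MEFs from E12.5 chimeric embryos made by morula aggregation. The transgenic cells express Cas9 and carry a doxycycline-inducible cassette of the 4 reprogramming factors with an mOrange reporter. Chimeric embryos also hold host cells without these transgenes. The authors assessed the transgenic proportion of each embryo, and the proportion in these MEF libraries is not given. All 4 groups were transduced with a guide RNA and harvested 96 h later, controls with a non-targeting guide and KO cells with a Zfp266 guide. MEF control and MEF KO cells stayed in MEF medium. The reprogramming cells were plated among a large excess of wild-type MEFs, per the methods for the RNA-seq samples that were followed here, and the MEF samples were plated unmixed. Reprogramming control and reprogramming KO cells were moved after 24 h to embryonic stem cell medium with doxycycline (300 ng/ml) and vitamin C (10 µg/ml), and mOrange+ cells were sorted. The contexts therefore differ in co-culture, medium, factor expression and sorted population, and these cannot be told apart. The KO cells are a transduced pool and not a clone, and accessibility counts give no measure of Zfp266 expression, so the KO itself was not checked here. Each group had 3 libraries of 50000 cells. Where nothing states that libraries came from separate cultures, the p-values measure the spread between these libraries.

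Between 4798 and 15063 reads per library fell in the 70 intervals, and the size factors of the libraries ran from 0.63 to 1.46. Peaks lay over the start sites of all 12 fibroblast markers in both MEF groups and of 11 in both reprogramming groups. Of 6 epithelial markers, 5 had one in the MEF groups and all 6 in the reprogramming groups. Of 10 pluripotency markers, 6 had one in MEF control, 7 in MEF KO and 6 in each reprogramming group. Of 5 markers of endothelium, blood, neurons and muscle, only Tubb3 had a start-site peak, and it did so in all 4 groups.

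The sequences of the intervals with the largest differences show what the loci were made of. For the 4 largest called differences towards MEF and the 3 largest towards reprogramming that held any of the searched strings, 200 bases of the reference (GRCm38, plus strand) are given. Capitals mark TGACTCA (AP-1, a palindrome but for its central base), GGGCGTGG or GGGTGTGG (KLF) and, inside a B1 match, the B1 strings AATCCCAGC, GAGGCAGG, AGCCTGGTC, AGGGCTACA and AAACCCTGT, all read on both strands. A B1 match is at least 2 of the 5 strings in order within 150 bases. The first 4 lines had the larger log2 ratio in MEF and the last 3 in reprogramming.
Chd7, chr4:8917405-8917604: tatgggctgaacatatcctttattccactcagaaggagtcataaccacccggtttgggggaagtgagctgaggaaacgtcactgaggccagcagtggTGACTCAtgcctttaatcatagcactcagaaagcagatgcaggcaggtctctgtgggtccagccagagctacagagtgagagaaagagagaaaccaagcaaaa
C77080, chr4:129267342-129267541: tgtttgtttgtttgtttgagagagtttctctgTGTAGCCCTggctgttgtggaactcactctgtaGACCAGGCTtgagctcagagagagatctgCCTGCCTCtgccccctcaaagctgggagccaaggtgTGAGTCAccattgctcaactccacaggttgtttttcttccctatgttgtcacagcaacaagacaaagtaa
Rps3, chr7:99504893-99505092: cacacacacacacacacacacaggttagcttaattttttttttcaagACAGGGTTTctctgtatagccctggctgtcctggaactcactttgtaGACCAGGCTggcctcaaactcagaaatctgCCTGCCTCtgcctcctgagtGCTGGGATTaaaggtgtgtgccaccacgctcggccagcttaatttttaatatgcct
Bclaf3, chrX:159528586-159528785: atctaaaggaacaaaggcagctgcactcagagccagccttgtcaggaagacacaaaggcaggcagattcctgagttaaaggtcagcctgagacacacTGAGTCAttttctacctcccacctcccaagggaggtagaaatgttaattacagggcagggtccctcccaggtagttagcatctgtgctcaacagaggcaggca
Btbd9, chr17:30439990-30440189: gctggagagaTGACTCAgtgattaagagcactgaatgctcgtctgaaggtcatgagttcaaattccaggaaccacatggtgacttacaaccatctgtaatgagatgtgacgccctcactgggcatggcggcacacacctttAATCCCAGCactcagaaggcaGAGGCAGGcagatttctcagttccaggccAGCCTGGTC
Cap2, chr13:46559751-46559950: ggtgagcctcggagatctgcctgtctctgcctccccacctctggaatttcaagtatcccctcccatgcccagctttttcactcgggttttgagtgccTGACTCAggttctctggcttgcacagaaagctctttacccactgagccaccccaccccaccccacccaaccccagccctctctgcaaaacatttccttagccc
Rasl10a, chr11:5052256-5052455: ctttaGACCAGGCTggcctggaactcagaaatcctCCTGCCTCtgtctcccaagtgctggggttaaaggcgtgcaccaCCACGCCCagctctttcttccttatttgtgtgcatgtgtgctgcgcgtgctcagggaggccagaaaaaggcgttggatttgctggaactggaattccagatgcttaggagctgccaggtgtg

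An AP-1 string stood in the windows of Chd7, C77080 and Bclaf3 and again in those of Btbd9 and Cap2. The Bclaf3 window also held a SOX string near its start (CCTTTGTT, read on the minus strand). SOX strings were not marked in capitals, and the whole Bclaf3 interval held 3 of them. The windows held minus-strand B1 matches at C77080, Rps3 and Rasl10a and a plus-strand match at Btbd9, and Rasl10a had another match, on the plus strand, outside the window shown. The transgenic cells were of another mouse strain than the reference, and the sequence of the cells was not read.

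All 70 intervals were more open in KO in both contexts, and the lowest KO library exceeded the highest control library at each of them in both. That separation is set by the listing and is no result. The log2 ratio of KO over control had a median of 1.12 in MEF, from 0.43 to 3.68, and of 0.94 in reprogramming, from 0.35 to 2.74. The members with the smallest listed effects were Bicral in MEF (0.43) and Fblim1 in reprogramming (0.35), and intervals just outside the lists have no counts for all libraries. The difference between contexts (reprogramming minus MEF) had a median of -0.11.

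The first question was where the KO effect differed between MEFs and reprogramming cells. The edgeR quasi-likelihood test of the interaction called 25 of the 70 intervals at an adjusted p under 0.05. The log2 ratio was larger in MEF at 16 intervals (22.9%) and larger in reprogramming at 9 (12.9%), and 30 intervals were under an unadjusted p of 0.05. When scaling factors were estimated over the 70 intervals by TMM, 26 were called, 17 towards MEF and 9 towards reprogramming, with all 25 kept. When they were estimated over the 70 by the DESeq2 method, the split was 11 to 11. The calls at Spink6, Ptprg, Tmem173, Tnrc6b and Kmt5c were then lost (adjusted p from 0.0632 to 0.197), and 2 other calls arose. Without any scaling 3 were called (2 in MEF and 1 in reprogramming). The plot of the effect in MEF against the effect in reprogramming shows the called intervals on either side of the diagonal. Library values and their order below are those with the deposited size factors, and scaling over the 70 intervals lowers every reprogramming level against MEF. Interval names below carry the gene whose body holds the midpoint or, between genes, the nearest protein-coding start site. Proximity does not show that an interval acts on that gene.

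**Figure D1:**
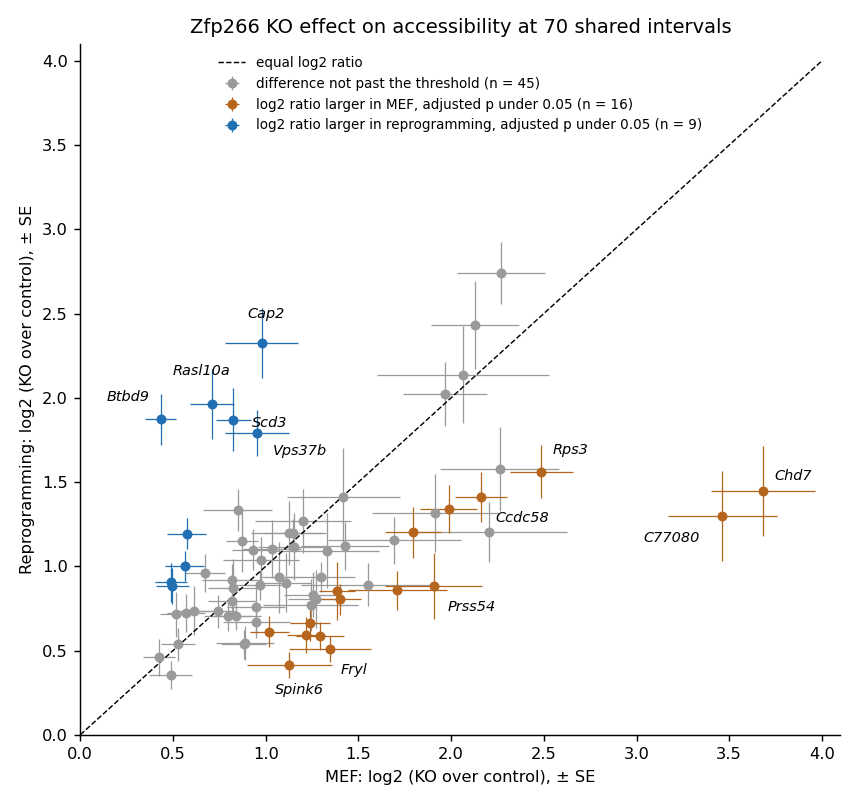
Log2 ratio of KO over control in MEF (x axis) against reprogramming (y axis) at the 70 intervals, with standard errors from the fit. Colours give the outcome of the interaction test: 16 intervals lie below the diagonal as larger in MEF, 9 above it as larger in reprogramming, and 45 did not pass the threshold. Chd7 and C77080 stand apart at MEF values of 3.68 and 3.46.

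The 2 largest differences towards MEF lay between genes on chromosome 4. The first, Interval_174985, chr4:8917108-8917613, lay 62129 bp from the nearest start site, that of Chd7, a chromatin remodeller. Normalised counts were 8.63, 7.33 and 14.3 in MEF control and 139, 132 and 113 in MEF KO libraries. They were 22.3, 21.8 and 9.14 in reprogramming control and 50.3, 43.1 and 60.3 in reprogramming KO. The MEF KO libraries were the highest of all 12, and the libraries of the other 3 groups lay well below them, with the control groups overlapping. On the log2 scale KO over control came to 3.68 ± 0.28 in MEF and 1.45 ± 0.27 in reprogramming, and the contexts differed by -2.24 ± 0.39 (adjusted p = 2.55e-07).

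The second, Interval_187172, chr4:129266960-129267761, was 5956 bp from the start of C77080. In MEF, the control libraries had 7.19, 9.16 and 11.5 normalised counts and the KO libraries 116, 89.8 and 98.9. In reprogramming, the control libraries had 15.6, 19.96 and 22.2 and the KO libraries 46.7, 51.7 and 42.9. As at Chd7, both control groups were low and the MEF KO group stood highest. Log2 KO over control was 3.46 ± 0.30 in MEF against 1.30 ± 0.27 in reprogramming, with a difference of -2.17 ± 0.40 (adjusted p = 8.64e-07). The fold of the group means was 11 in MEF and 2.44 in reprogramming, against 12.7 and 2.89 at Chd7.

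At the interval between genes near Prss54, a member of the serine protease family (Interval_246361, chr8:95579557-95580419), the order was another one. The normalised counts of MEF control were 10.1, 15.6 and 16.3, and those of MEF KO 61.5, 41.8 and 52.5. For reprogramming control they were 35.8, 43.5 and 45.7, and for reprogramming KO 61.3, 86.1 and 90.5. The reprogramming control libraries lay above all MEF control libraries, and the MEF KO libraries reached about their level. These counts gave a log2 ratio of 1.91 ± 0.26 in MEF and 0.88 ± 0.19 in reprogramming, which differed by -1.02 ± 0.33 (adjusted p = 0.00597). The gain in counts, with the deposited size factors, was 38 ± 6.01 in MEF and 37.6 ± 9.58 in reprogramming.

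Near Rps3, which encodes a protein of the small ribosomal subunit (Interval_231272, chr7:99504759-99506155), the KO groups had like levels with the deposited size factors. MEF control libraries held 30.2, 27.5 and 22 normalised counts and MEF KO libraries 175, 136 and 143. Reprogramming control libraries held 53.6, 39.9 and 44.4 and reprogramming KO libraries 134, 127 and 146. The KO groups overlapped, and the reprogramming control libraries lay above the MEF control libraries. With TMM factors over the 70 the KO level was higher in MEF (log2 -0.895, adjusted p = 3.92e-15), as it was with DESeq2 factors (-0.909) and without scaling (-0.698). The log2 ratio of KO over control was 2.49 ± 0.17 in MEF and 1.56 ± 0.16 in reprogramming, a difference of -0.92 ± 0.23 (adjusted p = 0.000418).

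The fifth was an intron of Bclaf3 on chromosome X (Interval_271979, chrX:159528162-159529830). Normalised counts were 8.63, 8.25 and 20.1 in MEF control and 44.3, 38.4 and 34.3 in MEF KO libraries. They were 113, 114 and 104 in reprogramming control and 195, 219 and 189 in reprogramming KO. Every reprogramming library lay above every MEF library, whatever the arm. On the log2 scale KO over control came to 1.71 ± 0.27 in MEF and 0.86 ± 0.12 in reprogramming, and the contexts differed by -0.85 ± 0.29 (adjusted p = 0.00859). Without MEF control 3 this difference was -1.34, and without MEF control 1 it was -0.619 (adjusted p = 0.118). A second shared interval 10092 bp away, Interval_271978, had a log2 difference of -0.66 ± 0.38 that did not pass the threshold (adjusted p = 0.147), with ratios of 1.55 ± 0.36 in MEF and 0.89 ± 0.13 in reprogramming.

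The other 11 differences towards MEF ran from -0.84 to -0.41. The larger were Fryl (-0.84 ± 0.24, adjusted p = 0.00122), Ccdc58 (-0.75 ± 0.21, adjusted p = 0.00133), Spink6 (-0.71 ± 0.24, adjusted p = 0.00874), which encodes a Kazal-type protease inhibitor of skin, and Ubap1 (-0.71 ± 0.15, adjusted p = 3.99e-05), which encodes an ESCRT-I subunit. Next came Ptprg (-0.65 ± 0.21, adjusted p = 0.00753), a receptor tyrosine phosphatase, Smurf1 (-0.63 ± 0.15, adjusted p = 0.000265), a ubiquitin ligase that acts on BMP-pathway SMADs, and Lman1l (-0.60 ± 0.15, adjusted p = 0.000275). The rest were Tmem173 (-0.59 ± 0.21, adjusted p = 0.017), which encodes the innate immune adaptor STING, Btbd11 (-0.58 ± 0.15, adjusted p = 0.000871), Tnrc6b (-0.53 ± 0.20, adjusted p = 0.0207), of the microRNA silencing machinery, and Kmt5c (-0.41 ± 0.14, adjusted p = 0.00985), a methyltransferase of histone H4. Of the 16 intervals, Chd7, C77080, Rps3, Ccdc58, Ubap1, Smurf1, Lman1l and Btbd11 kept the call whichever of the 12 libraries was left out, and the other 8 lost it without at least 1. At Fryl the difference went to -0.549 without MEF control 1 (adjusted p = 0.0768). DESeq2's Wald test and limma on log2 values did not call Tnrc6b (adjusted p = 0.0638 and 0.0651).

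The largest difference towards reprogramming was in an intron of Btbd9, which encodes a BTB-domain protein (Interval_113933, chr17:30438542-30440404). In MEF, the control libraries had 321, 348 and 327 normalised counts and the KO libraries 430.3, 447 and 468. In reprogramming, the control libraries had 80.4, 64.4 and 52.2 and the KO libraries 228, 233 and 278. The MEF libraries were the highest in both arms, and the reprogramming KO libraries did not reach the MEF control libraries. Log2 KO over control was 0.43 ± 0.08 in MEF against 1.87 ± 0.15 in reprogramming, with a difference of 1.44 ± 0.17 (adjusted p = 3.1e-15). The interval was thus open in MEF control, low in reprogramming control, and in between in reprogramming KO.

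An intron of Cap2, which encodes an actin-regulating protein (Interval_68259, chr13:46559622-46560599), had like control levels in both contexts with the deposited size factors, and a lower one in reprogramming with TMM (log2 -0.845) or DESeq2 factors (-1.01) over the 70. The normalised counts of MEF control were 26.6, 32.1 and 25.8, and those of MEF KO 50.8, 53.5 and 63.6. For reprogramming control they were 31.3, 23.6 and 23.5, and for reprogramming KO 138, 132 and 119. The control groups overlapped and the reprogramming KO libraries stood above all the rest. These counts gave a log2 ratio of 0.98 ± 0.20 in MEF and 2.33 ± 0.21 in reprogramming, which differed by 1.35 ± 0.29 (adjusted p = 3.74e-05).

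The third was an interval between genes 5560 bp from the start of Rasl10a, a small GTPase of the Ras family (Interval_35059, chr11:5052256-5052880). MEF control libraries held 74, 88 and 80.3 normalised counts and MEF KO libraries 140.1, 132 and 121. Reprogramming control libraries held 34.6, 18.1 and 22.2 and reprogramming KO libraries 87.8, 101 and 105. Here the control level was lower in reprogramming, and the reprogramming KO libraries overlapped the MEF control libraries and lay below all MEF KO libraries. The log2 ratio of KO over control was 0.71 ± 0.12 in MEF and 1.96 ± 0.21 in reprogramming, a difference of 1.25 ± 0.24 (adjusted p = 1.31e-06).

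An intron of Scd3, a stearoyl-CoA desaturase of lipid synthesis (Interval_135392, chr19:44225408-44226539), showed the same order of the control groups. Normalised counts were 97.1, 144 and 119 in MEF control and 205, 213 and 211 in MEF KO libraries. They were 32.4, 30.8 and 19.6 in reprogramming control and 94.2, 113 and 106 in reprogramming KO. The reprogramming KO libraries overlapped the MEF control libraries. On the log2 scale KO over control came to 0.83 ± 0.09 in MEF and 1.87 ± 0.19 in reprogramming, and the contexts differed by 1.04 ± 0.21 (adjusted p = 3.8e-06). The gain in counts, with the deposited size factors, was 89.7 ± 13.7 in MEF and 77 ± 6.86 in reprogramming.

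Near Vps37b, another ESCRT-I subunit (Interval_203921, chr5:124051827-124053033), the highest libraries were those of reprogramming KO. In MEF, the control libraries had 30.9, 36.6 and 30.6 normalised counts and the KO libraries 51.6, 69.3 and 68.7. In reprogramming, the control libraries had 67, 55.3 and 62.7 and the KO libraries 219.6, 204 and 209.6. MEF KO and reprogramming control overlapped. Log2 KO over control was 0.95 ± 0.17 in MEF against 1.79 ± 0.14 in reprogramming, with a difference of 0.84 ± 0.22 (adjusted p = 0.00113). The other 4 were 1700061G19Rik (0.62 ± 0.14, adjusted p = 8e-05), whose interval midpoint fell in a coding exon, Gse1 (0.44 ± 0.14, adjusted p = 0.00687), Odc1 (0.42 ± 0.14, adjusted p = 0.0112), the rate-limiting enzyme of polyamine synthesis, and Ikbip (0.39 ± 0.14, adjusted p = 0.0158). The calls at Odc1 and Ikbip were lost without some single libraries, and those at the other 7 were held under each omission. At Odc1 the difference went to 0.271 without reprogramming control 2 (adjusted p = 0.194). DESeq2's Wald test called neither Odc1 (adjusted p = 0.0719) nor Ikbip (0.0544), and limma on log2 values did not call Odc1 (0.0651).

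**Figure D2:**
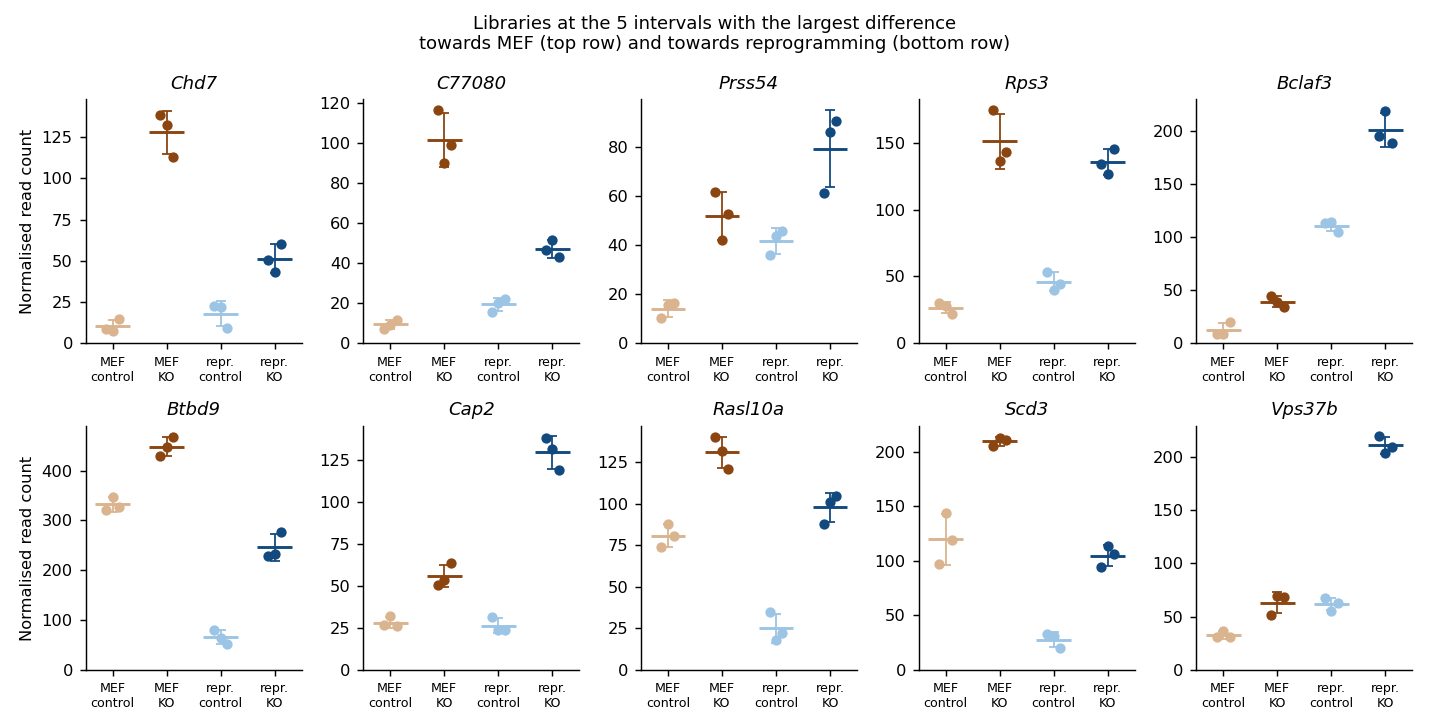
Normalised read counts (y axis, from 0, scale set per panel) of the 12 libraries at the 5 intervals with the largest difference in each direction. Points are libraries, horizontal lines group means and bars standard deviations (n = 3). In the top row the ratio was larger in MEF, with both controls low at Chd7 and C77080. In the bottom row it was larger in reprogramming, with the lower control level in reprogramming at Btbd9, Rasl10a and Scd3.

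At the other end, the 5 intervals with the smallest absolute difference were near or in Slc5a6 (-0.00 ± 0.42), a vitamin transporter, Chn2 (0.01 ± 0.13), a Rac GTPase-activating protein, Nanos3 (-0.01 ± 0.14), a germ cell RNA-binding protein, Pik3c2b (-0.02 ± 0.16), a class II phosphoinositide kinase, and Bicral (0.03 ± 0.14), a subunit of a BAF remodelling complex. The standard errors differ, so that at Slc5a6 a sizeable difference could not be seen while at Chn2 and Bicral the estimate was closer. With the deposited size factors Chn2 held 220.1 ± 16.3 normalised counts in MEF control and 316 ± 8.82 in MEF KO, and 235 ± 21.1 and 337 ± 9.87 in reprogramming (SD, n = 3). With TMM factors over the 70 intervals its levels were lower in reprogramming, with log2 differences of -0.649 in control and -0.629 in KO.

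Some of the largest effects were large in both contexts. Near Gm4301 the log2 ratio was 2.27 ± 0.24 in MEF and 2.74 ± 0.18 in reprogramming, the largest reprogramming value of the 70, with a difference of 0.48 ± 0.30 (adjusted p = 0.231). Near Cited2, a transcriptional co-regulator, the ratios were 2.13 ± 0.24 and 2.43 ± 0.26 (adjusted p of the difference = 0.553). Near Pim1, a serine/threonine kinase, they were 1.97 ± 0.22 and 2.02 ± 0.19 (adjusted p = 0.942). In an intron of Fbxo15, an early marker of reprogramming, they were 2.06 ± 0.47 and 2.14 ± 0.29, but the MEF control level was 3.8 ± 3.06 normalised counts (SD, n = 3) and the difference had a standard error of 0.55. The interval in Sass6, which encodes a centriole protein, missed the threshold narrowly, at -1.002 ± 0.46 (adjusted p = 0.0511).

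The second question was how the levels themselves differed between contexts. In control libraries 47 of the 70 intervals (67.1%) were higher in reprogramming and 13 (18.6%) higher in MEF, with a median log2 difference of 0.89. In KO libraries 45 (64.3%) were higher in reprogramming and 16 (22.9%) in MEF, with a median of 0.62. These splits rest on the deposited size factors. Scaling by TMM over the 70 intervals moved the medians to 0.16 in control and -0.11 in KO and the splits to 28 and 23 in control and 29 and 31 in KO, and DESeq2 factors over the 70 gave 25 and 27 in control and 29 and 31 in KO. Without scaling they were 31 and 13 in control and 29 and 19 in KO. Factors estimated over the 70 take up whatever these same intervals share, so near-even splits under them are favoured by the method. Such splits do not show that the levels were alike, and the 70 intervals cannot tell which scaling is right.

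The difference in KO effect is the level difference in KO minus that in control, so the same control counts enter both, and their relation is described without a test. The listing bears on it too, since an interval with few control reads in a context needed a larger ratio to be listed there. Among the 47 intervals with the higher control level in reprogramming, 15 were called with the larger ratio in MEF and 3 with the larger ratio in reprogramming. Among the 13 with the higher control level in MEF, 1 was called towards MEF and 5 towards reprogramming. Of the 10 whose control levels did not pass the test, Cap2 was the called one. With TMM factors over the 70, 7 of the 16 intervals towards MEF and 0 of the 9 towards reprogramming had a control level called higher in reprogramming, and 2 and 6 one called higher in MEF. By sign alone, with the deposited factors, the ratio was larger in MEF at 35 of the 47, and larger in reprogramming at 10 of the 13.

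The 16 intervals with the larger ratio in MEF fell into 3 patterns. At Chd7, C77080 and Ccdc58 the control level was higher in reprogramming while the KO level was higher in MEF. For Chd7 the log2 difference of reprogramming over MEF was 0.89 ± 0.35 in control (adjusted p = 0.0122) and -1.35 ± 0.17 in KO (adjusted p = 6.97e-17). For C77080 it was 1.07 ± 0.36 in control (adjusted p = 0.00281) and -1.10 ± 0.18 in KO (adjusted p = 2.16e-10), and for Ccdc58 0.36 ± 0.18 in control (adjusted p = 0.0472) and -0.39 ± 0.10 in KO (adjusted p = 0.000279). At Rps3, Ptprg, Smurf1, Tmem173 and Btbd11 the control level was higher in reprogramming and the KO levels did not differ past the threshold, with KO log2 differences from -0.17 to 0.10. At Prss54, Bclaf3, Fryl, Spink6, Ubap1, Lman1l and Kmt5c reprogramming was higher in both arms, by less in KO. Tnrc6b was the exception with MEF higher in both arms, and for it the difference was -1.22 ± 0.16 in control (adjusted p = 2.96e-15) and -1.75 ± 0.12 in KO (adjusted p = 4.04e-48). These patterns rest on the deposited size factors, since scaling over the 70 intervals lowers reprogramming against MEF. With TMM or DESeq2 factors over the 70, the control difference did not pass the threshold at Chd7 (log2 0.153 and -0.00708), C77080 (0.337 and 0.178), Rps3 (0.0202 and -0.14) or Ptprg (0.00815 and -0.153), and its sign turned towards MEF at Ccdc58 (-0.377 and -0.537), Smurf1 (-0.26 and -0.42), Tmem173 (-0.223 and -0.384) and Btbd11 (-0.0778 and -0.237). The KO level was higher in MEF at Chd7, C77080 and Ccdc58 under each scaling, none included. Under both scalings over the 70 it was also higher in MEF at Rps3, Ptprg, Smurf1, Tmem173 and Btbd11, with adjusted p of 1.64e-08 or less under TMM. With the same factors the KO level did not differ past the threshold at Prss54 (-0.149 and -0.163), Kmt5c (-0.141 and -0.155) and Lman1l (0.0806 and 0.0665), nor did the Kmt5c control level with DESeq2 factors (0.0989), while Bclaf3, Fryl, Spink6 and Ubap1 stayed higher in reprogramming in both arms.

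Of the 9 with the larger ratio in reprogramming, Btbd9, Rasl10a, Scd3 and Odc1 were higher in MEF in both arms, by less in KO. For Btbd9 the log2 difference was -2.32 ± 0.14 in control (adjusted p = 1.34e-58) and -0.88 ± 0.09 in KO (adjusted p = 8.62e-20), and for Scd3 -2.06 ± 0.18 in control (adjusted p = 2.34e-34) and -1.02 ± 0.11 in KO (adjusted p = 1.26e-20). Ikbip was higher in MEF control and the KO levels did not differ past the threshold (0.01 ± 0.09, adjusted p = 0.911). Gse1, 1700061G19Rik and Vps37b were higher in reprogramming in both arms, by more in KO. For Cap2 the difference was -0.11 ± 0.25 in control (adjusted p = 0.685) and 1.24 ± 0.15 in KO (adjusted p = 3.73e-16). Btbd9, Rasl10a, Scd3 and Odc1 stayed higher in MEF in both arms under each scaling. Cap2 became lower in reprogramming control with TMM factors over the 70 (log2 -0.845, adjusted p = 0.000874), and its KO level stayed higher in reprogramming (0.511). Ikbip became higher in MEF in KO libraries too, with -0.721 under TMM (adjusted p = 8.21e-16) and -0.735 under DESeq2 factors. With TMM factors the control levels at Gse1, 1700061G19Rik and Vps37b did not differ past the threshold.

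**Figure D3:**
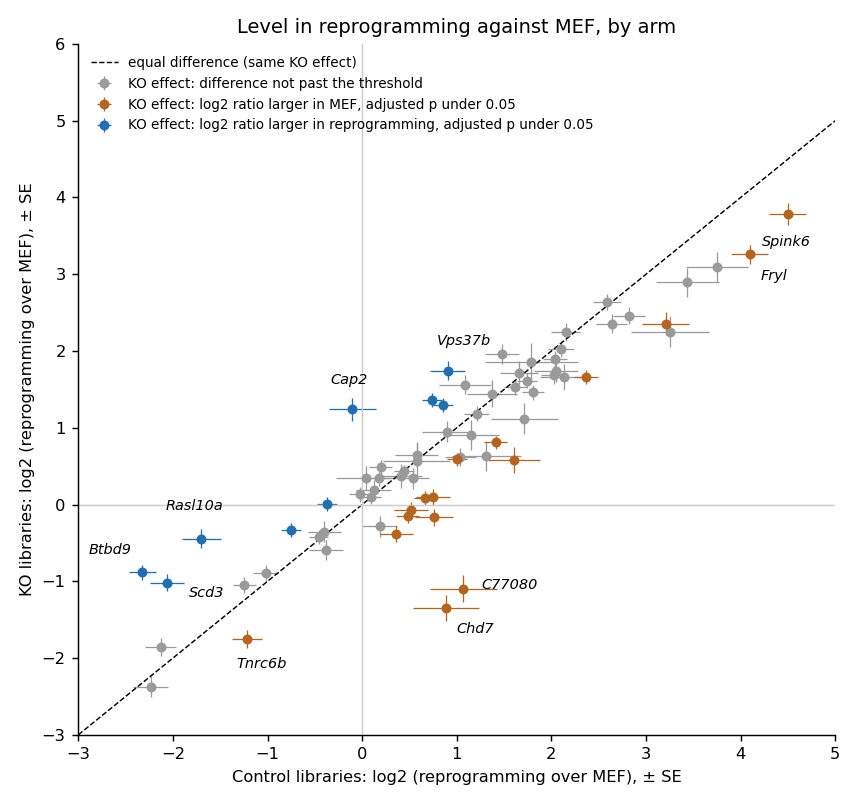
Log2 ratio of reprogramming over MEF in control libraries (x axis) and in KO libraries (y axis) at the 70 intervals, with the deposited size factors and with standard errors. The dashed line marks an equal difference in both arms, which is an equal KO effect. Chd7 and C77080 lie right of 0 in control and below 0 in KO, Btbd9 and Scd3 lie below 0 in both arms, and Cap2 lies near 0 in control and at 1.24 in KO.

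The context that responds more depended on whether a ratio or a gain is compared. The gain is the KO mean minus the control mean in normalised counts, and with the deposited size factors its median was 50.6 in MEF and 83.0 in reprogramming. limma on normalised counts called 44 intervals, with the larger gain in reprogramming at 33 and in MEF at 11. These values move with the scaling, since lowering all reprogramming libraries by the shift of the TMM factors over the 70 gave a reprogramming median of 49.7 and a split of 22 to 20. That shift evens out the levels of these same intervals between contexts, which favours a near-even split. With the deposited factors, of the 16 intervals with the larger ratio in MEF, 7 also had the larger gain in MEF, 4 had the larger gain in reprogramming and 5 were not called by gain. After the shift 11 of them had the larger gain in MEF, 3 in reprogramming and 2 were not called. At Chd7 the gain was 118 ± 7.95 in MEF and 33.5 ± 6.61 in reprogramming, and at Tnrc6b it was 156 ± 8.64 in MEF and 34.5 ± 6.17 in reprogramming. In the opposite direction, Fryl gained 25.4 ± 4.29 in MEF and 119 ± 5.96 in reprogramming, and Spink6 22.8 ± 6.17 in MEF and 152 ± 20.2 in reprogramming. Bclaf3 and Ubap1 were the other called reversals, of which Ubap1 was not called after that shift (108 in MEF and 113 in reprogramming). Of the 9 with the larger ratio in reprogramming, 6 had the larger gain there as well and 3 (Odc1, Rasl10a and Scd3) were not called by gain, while after the shift 4 did and Scd3 had the larger gain in MEF (89.7 against 46.1).

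**Figure D4:**
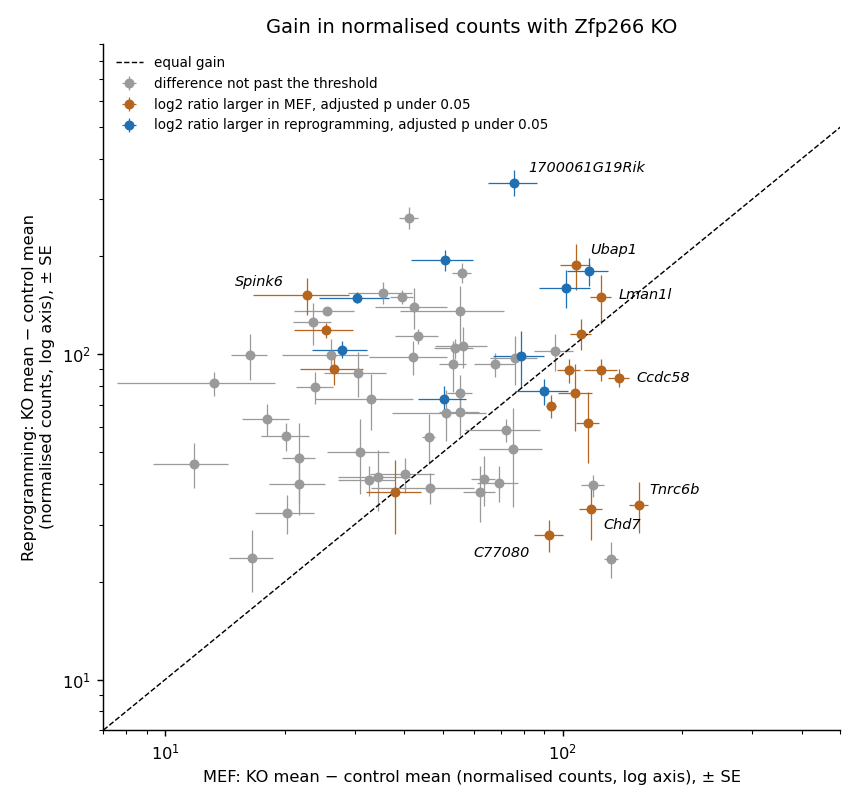
KO mean minus control mean in normalised counts with the deposited size factors, in MEF (x axis) and reprogramming (y axis), both on log axes, with standard errors (n = 3 per group). Colours are those of the ratio test. Several intervals with the larger ratio in MEF, such as Spink6, lie above the line of equal gain, while Chd7, C77080 and Tnrc6b lie well below it.

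The peak lists, 1 merged list per group and so without replicates, were made from the same reads and are no independent measure. More peaks in KO than in control is set by the listing. In MEF a peak overlapped 38 of the 70 intervals for control and 63 for KO, and in reprogramming 53 for control and 67 for KO. With peaks that cover at least 50% of an interval, the counts in the same order were 19, 52, 27 and 62. At C77080 a peak was called in MEF KO alone, with a fold enrichment of 2.58 over background, and at Chd7 in both KO groups, at 4.11 in MEF and 2.55 in reprogramming. At Tnrc6b the peaks were in both MEF groups and at Bclaf3 in both reprogramming groups. All 9 intervals with the larger ratio in reprogramming had a peak in MEF control, and Cap2, Rasl10a and Scd3 had one in every group but reprogramming control. Of the 16 towards MEF, 8 had a peak in MEF control and 12 in reprogramming control. At Btbd9 the fold enrichment was 4.66 in MEF control and 4.72 in MEF KO, against 2.27 and 4.78 in reprogramming. Of the 13 called intervals with a peak in all 4 groups, the ratio of peak enrichments, from the same reads, differed in the same direction as the counts at 12, the exception being 1700061G19Rik. Over all 33 intervals with a peak in all 4 groups, called or not, it did so at 28.

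The intervals spanned 341 to 3450 bp with a median of 1076 bp, on 20 chromosomes, and belonged to 69 genes. By midpoint 41 were in introns, 27 between genes, 1 in a coding exon, 1 in a UTR and 0 within 1000 bp of a protein-coding start site. Of the 16 towards MEF 10 were in introns and 6 between genes, and of the 9 towards reprogramming 5 were in introns and 3 between genes. Short lists of 10 AP-1, 22 TGF-beta and BMP and 53 collagen and matrix genes, out of 21951 protein-coding genes, named 0 of the intervals. Smurf1 was not on the BMP list. The pluripotency list of 20 genes held 1 of the intervals (Fbxo15), and 1 had its nearest start site at a Zfp gene (Zfp609, in the body of Trip4). Near neighbours did not always behave alike. The intervals near Kcng3 and Mta3 are 47940 bp apart, and in control libraries the log2 difference of reprogramming over MEF was 1.47 ± 0.18 (adjusted p = 2.87e-16) at the former and -0.38 ± 0.18 (adjusted p = 0.0335) at the latter.

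The searched strings were counted over whole intervals, both strands, without a test. TGACTCA occurred in 48 of the 70 intervals (68.6%, against 36.9% of merged intervals of like length) and a B1 match in 37 (52.9%, against 6.95%). The KLF strings occurred in 26 (37.1%, against 19.1%), the SOX strings CCATTGTT, CCTTTGTT, CCATTGTC and CCTTTGTC in 19 (27.1%, against 23.8%) and the OCT string ATTTGCAT in 3 (4.29%, against 7.07%). The central 400 bases alone held TGACTCA in 26 and a B1 match in 11. The intervals listed in MEF only held TGACTCA at 62.0%, a B1 match at 32.9% and a KLF string at 18.5%. Those listed in reprogramming only held them at 32.7%, 60.9% and 54.0%, so the shared intervals were near the MEF list for AP-1 and between the lists for KLF.

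Within the 70, TGACTCA was found in 14 of the 16 intervals with the larger ratio in MEF, 7 of the 9 with the larger ratio in reprogramming and 27 of the 45 others. A B1 match was found in 4 of the 16, 7 of the 9 and 26 of the 45. A KLF string was found in 5 of the 16, 6 of the 9 and 15 of the 45, and the KLF string GGGCGTGG can lie in the head of a B1 element. A KLF string together with a B1 match was in 0 of the 16, 5 of the 9 and 11 of the 45. The B1 matches towards MEF were those of C77080, Rps3, Ubap1 and Tmem173, and towards reprogramming Cap2 and Odc1 were the intervals without one. Prss54 held no AP-1 or KLF string and no B1 match. These groups are small and their lengths differ, with medians of 1089 bp towards MEF and 1545 bp towards reprogramming, so the shares are given as a description.

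In simulated counts with the spread of these libraries, the interaction test recovered 50.0% of changes of 0.5 on the log2 scale, 93.8% of changes of 1 and 96.7% of changes of 1.5, with 7 false calls among 800 unchanged intervals. The 45 intervals without a call are thus not shown to respond alike. At 9 intervals at least 1 library had under 10 raw counts, and the lowest count was 2.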

How the data were processed

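Omni-ATAC-seq was performed by the authors on 12 libraries, 3 in each of 4 groups, and groups and replicate numbers were taken from the sample titles. Per the submitters' processing notes and the study's methods, reads were trimmed with cutadapt, mapped to GRCm38 with BWA, and cleared of duplicate, mitochondrial, blacklisted and improperly paired reads with Picard, SAMtools and bedtools. MACS2 was run by the authors for broad peaks, with the 3 replicates of a group pooled. Reads over the merged peaks were counted, and KO was compared with control by DESeq2. Raw read counts of each library stand in the deposited tables, with the same counts divided by a size factor, a normalised signal. They also hold fold changes and p-values of the authors' own comparison, which were not used. The deposited peak lists give a fold enrichment over background for each peak, a ratio, with 1 list per group and so no replicate error. Peak positions are counted from 0 in the files and from 1 here.

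Merging the 4 peak lists with bedtools 2.31.1 gave 273256 intervals, which held all listed ones. The 70 members were the identifiers found in both tables, and the members, gene lists, strings and tests were chosen with earlier results of these data known. Size factors were recovered as raw over normalised count. Counts of all 12 libraries were fitted with edgeR 4.0.16 in R 4.3.3 (quasi-likelihood test, two-sided, 1 coefficient per group, log size factor as offset). The interaction and the differences between contexts in control and in KO libraries were each adjusted by Benjamini-Hochberg over the 70 intervals. Standard errors came from the same fit. The spread was estimated from intervals that had been listed on these libraries, which may favour low spread. The means in the text are of normalised counts ± SD (n = 3). Every interval past an adjusted p of 0.05 in the interaction and the 5 with the smallest absolute difference were named, and library values were given for the 5 largest in each direction. Genes came from GENCODE M21 and strings from the GRCm38 reference, with no repeat annotation at hand, so that a B1 match is a match of strings and not a mapped element. The fit was tested on simulated counts of 1000 intervals, 200 of them changed. Alternatives were other scalings, DESeq2 1.42.0, limma 3.58.1 on log2(normalised count + 1) and on normalised counts, a minimum mean of 50, a replicate block, adjustment over all merged intervals, omission of each library, a pseudocount of 10 or group medians, and other windows for start sites, peaks and strings. Libraries of 1 group differed by more than counting noise over the listed intervals (chi-square of 1.17 to 1.77 per degree of freedom), so none was counted as a duplicate. The number of columns not mapped to a sample was 0. Depth beyond the listed intervals was not analysed here. A further sequence and a gene list are not reported here.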

Additional observations from a re-analysis of the deposited data

Results flagged for a closer look

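The effect of the KO was not the same in both contexts by the test of the difference itself (edgeR quasi-likelihood interaction, adjusted p under 0.05 over 70 intervals) at 25 intervals. The log2 difference, reprogramming minus MEF, was -2.24 (Chd7), -2.17 (C77080), -1.02 (Prss54), -0.92 (Rps3), -0.85 (Bclaf3), -0.84 (Fryl), -0.75 (Ccdc58), -0.71 (Spink6), -0.71 (Ubap1), -0.65 (Ptprg), -0.63 (Smurf1), -0.60 (Lman1l), -0.59 (Tmem173), -0.58 (Btbd11), -0.53 (Tnrc6b) and -0.41 (Kmt5c) where the ratio was larger in MEF. It was 1.44 (Btbd9), 1.35 (Cap2), 1.25 (Rasl10a), 1.04 (Scd3), 0.84 (Vps37b), 0.62 (1700061G19Rik), 0.44 (Gse1), 0.42 (Odc1) and 0.39 (Ikbip) where the ratio was larger in reprogramming. With groups of 3 libraries, no test for single outlying libraries was made.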

How the results depend on the processing

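The size factors, the scale of the comparison and the number of intervals adjusted over moved the results most. With TMM factors over the 70 the interaction was called at 26 intervals, 17 towards MEF and 9 towards reprogramming, and all 25 calls were kept. With DESeq2 factors over them it was called at 22 (11 and 11), with 20 of the 25 kept. Without scaling, the interaction was called at 3 intervals, 2 towards MEF and 1 towards reprogramming. Adjusted over all 273256 merged intervals it was called at 5 (2 and 3). Those 5 were Chd7, C77080, Btbd9, Rasl10a and Scd3. limma on normalised counts, which compares gains and not ratios, called 44, with 33 towards reprogramming and 11 towards MEF. On that scale the difference, in normalised counts, had another sign than the log ratio at 34 of the 70 intervals. Among the 25 called by ratio it turned towards reprogramming at Bclaf3 (63.7), Fryl (93.2), Spink6 (129.2), Ubap1 (80.4), Lman1l (25.3) and Kmt5c (4.54) and towards MEF at Scd3 (-12.7), and at Pik3c2b, among the 5 of smallest ratio difference, a call towards reprogramming arose (56.3). Rescaling reprogramming as a whole, chosen after seeing the data, gave gain splits of 22 to 20 with the TMM shift and 21 to 21 with the DESeq2 shift. Factors over the 70 even out the levels of these same intervals, so near-even splits of gains or levels are favoured by the method. Lman1l (adjusted p = 0.287 by limma) and Kmt5c (0.81) were not called by gain before the TMM shift and were called towards MEF after it (-34.9 and -42 normalised counts), and the call at Pik3c2b was lost (16.8, adjusted p = 0.164). Levels higher in reprogramming and in MEF in control libraries numbered 28 and 23 with TMM over the 70 intervals, 25 and 27 with DESeq2 factors over them, and 31 in reprogramming without scaling. In KO libraries they numbered 29 and 31 with TMM, 29 and 31 with DESeq2 factors, and 29 in reprogramming without scaling. The numbers called after adjustment over all merged intervals were 41 in control and 48 in KO libraries. DESeq2's Wald test called 22 interactions, without Tnrc6b, Odc1 and Ikbip, and limma on log2 values 24, without Tnrc6b and Odc1, and a minimum mean count of 50 left 60 intervals with 23 calls.

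Leaving out 1 library at a time gave 20 to 28 interaction calls (11 to 18 towards MEF, 7 to 10 towards reprogramming), 55 to 61 calls in control libraries (44 to 48 and 11 to 13) and 56 to 61 in KO libraries (41 to 46 and 14 to 16). Of the 25 called intervals, 15 kept the call under all 12 omissions. Without MEF control 1 the call was lost at Prss54 (adjusted p = 0.0736), Fryl (0.0768) and Bclaf3 (0.118), with edgeR throughout. Without MEF control 2 it was lost at Kmt5c (0.053), Ptprg (0.0567), Bclaf3 (0.0784), Tnrc6b (0.0862) and Spink6 (0.093). Without MEF KO 2 it was lost at Ikbip (0.0621) and Spink6 (0.0975), and without MEF KO 3 at Odc1 (0.0595). Without reprogramming control 1 it was lost at Tmem173 (0.0738), Ikbip (0.0779) and Tnrc6b (0.221), and without reprogramming control 2 at Tnrc6b (0.0594), Ikbip (0.0815) and Odc1 (0.194). Without reprogramming KO 1 it was lost at Kmt5c (0.0526), Tnrc6b (0.0661) and Odc1 (0.18), and without reprogramming KO 3 at Ikbip (0.0556). The log2 difference moved by over 1.5 times at Fryl without MEF control 1 (-0.549), at Bclaf3 without MEF control 3 (-1.34) and at Odc1 without reprogramming control 2 (0.271), and at no other called interval. No call changed sign. The cause was not tested.

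A replicate block by library number gave 25 interaction calls, 60 in control and 60 in KO libraries, and a block within each context 27 interaction calls. Same-numbered libraries did not deviate together (correlations from -0.27 to 0.17 over 18 pairs, 3 of them over 0.1), so the numbers were not taken to pair libraries. With a pseudocount of 10 the median log2 ratio of group means went from 1.09 to 0.87 for MEF and changed from 0.94 to 0.87 for reprogramming, and with a start-site distance of 2500 bp 5 intervals counted as promoters.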

Other observations

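Many intervals differed in level between contexts without a call in the interaction test. Of the 45 intervals without an interaction call, 36 differed in control level between contexts by the edgeR test with the deposited size factors. Of these, 29 were higher in reprogramming and 7 higher in MEF. Among all 70 intervals, 60 differed in control level by the same test, 47 higher in reprogramming and 13 higher in MEF. A difference in control level was thus no trait of the intervals without a call. The interval near Ankdd1a, on chromosome 9, held 120.1 ± 7.05 and 252 ± 5.54 normalised counts in MEF control and KO and 25.6 ± 2.67 and 49 ± 4.41 in reprogramming control and KO (SD, n = 3). Its control level was lower in reprogramming, a drop by 2.24 on the log2 scale, and its KO ratio differed by -0.14 ± 0.23 (adjusted p = 0.733). The intron of Stab2, which encodes a scavenger receptor of endothelium, held 144 ± 2.5 and 264 ± 13.6 normalised counts in MEF control and KO and 33.5 ± 5.16 and 73.1 ± 1.46 in reprogramming control and KO (SD, n = 3), with a difference in ratio of 0.28 ± 0.20 (adjusted p = 0.282).

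In the other direction, the interval near Tent5b, a poly(A) polymerase family member, held 34.1 ± 1.91 and 75.2 ± 3.22 normalised counts in MEF control and KO and 205 ± 5.2 and 468 ± 34.7 in reprogramming control and KO (SD, n = 3). Its control level was higher in reprogramming by 2.59 ± 0.15 on the log2 scale, and its KO ratio differed by 0.05 ± 0.18 (adjusted p = 0.928). In an intron of Pigl, of glycosylphosphatidylinositol anchor synthesis, the values were 34.6 ± 0.992 and 60.1 ± 7.61 normalised counts in MEF control and KO and 154 ± 3.17 and 290.2 ± 6.14 in reprogramming control and KO (SD, n = 3), with a difference in ratio of 0.10 ± 0.19 (adjusted p = 0.763). These intervals were chosen after their values were seen, and a p that misses the threshold does not show that the ratios are equal.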
